A study of Rattus norvegicus with 12 samples.

Results

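The FGF receptors and the ERK feedback inhibitors were described here as 10 genes chosen by name, the receptors Fgfr1, Fgfr2 and Fgfr3, the receptor-like gene Fgfrl1, the Sprouty genes Spry1, Spry2 and Spry4, the phosphatase Dusp6, and Spred1 and Spred2. All 10 were listed among the 20190 genes measured, and all 10 passed the filter on low values. The study asked how the sodium concentration outside the cell acts on osteoblasts and what part of the response runs through NFAT5, the tonicity-responsive transcription factor. UMR-106, a rat osteosarcoma line with osteoblast properties, was kept for 24 h in medium lowered by 20 mM NaCl (-NaCl) or raised by 20 mM (+NaCl), so that the media differed by 40 mM, and all 4 groups received the medium with calcitriol, the active form of vitamin D. The groups were control cells in -NaCl, control cells in +NaCl, NFAT5KO cells in -NaCl and NFAT5KO cells in +NaCl, with 3 biological replicates each. No group was kept in unaltered medium. Each rise or fall with +NaCl below is therefore relative to -NaCl, and effects of raising and of lowering NaCl cannot be told apart. The NFAT5KO cells are a single-cell-derived Crispr-Cas9 clone, so that effects of the knockout and other properties of the clone cannot be told apart.

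FGFs bind receptor tyrosine kinases at the cell surface together with heparan sulfate, and the bound receptor phosphorylates the adaptor FRS2, which feeds the cascade from RAS to ERK. Active ERK turns on genes whose products dampen the same route: Sprouty and SPRED proteins act upstream of ERK, and DUSP6 removes phosphate from ERK in the cytoplasm. In bone, signalling through FGFR1, FGFR2 and FGFR3 steers osteoblast growth and differentiation, and FGF23 is a hormone that osteoblasts and osteocytes secrete.

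The libraries held 14267946 to 22798804 recovered reads each. Nfat5 mRNA, the check of the labels, ran from 792 to 1626 normalized counts in the 6 NFAT5KO libraries and from 2689 to 4575 in the 6 control libraries, so the clone kept reads of the gene and every NFAT5KO library was below every control library. Nfat5 was higher in +NaCl than in -NaCl, by 0.64 on the log2 scale in control cells (limma adjusted p = 4.1e-06). In NFAT5KO cells it was higher by 0.80 (adjusted p = 0.00085, and 0.0764 in limma without a mean-variance trend). The difference between these responses did not pass the test (adjusted p = 0.611). The study reported the knockout as complete by immunoblot and by qRT-PCR, which detected no Nfat5 mRNA in the clone. It also reported no effect of +NaCl on Nfat5 mRNA there. Reads counted over the whole gene are a different measure and do not show whether protein was made. All 10 osteoblast markers were listed, but Bglap, the osteocalcin gene, was near absent with 17, 12, 37 and 32 reads summed per group in the order given above, and Phex was low at 2.11 to 11.4 RPM as group means. The summed level of the 10 markers was 3900 to 4080 RPM (recovered reads scaled to the library total of genes in both tables) in control -NaCl, 6460 to 6860 in control +NaCl, 3960 to 4580 in NFAT5KO -NaCl and 5090 to 5160 in NFAT5KO +NaCl. The summed chondrocyte markers were 8.24 to 11.6 RPM in control and 1.27 to 2.40 in NFAT5KO libraries, the adipocyte, leukocyte, endothelial and muscle lists did not exceed 2.62, and Ptprc, Cd3e, Pecam1 and Myod1 were at 0 or were not listed in both tables. Within NFAT5KO cells the means of Alpl (652 and 611 RPM) and Spp1 (840 and 769) were lower in +NaCl while the sum was higher. The higher sum in +NaCl moved with the results below and its part in them was not tested. Replicate 1 of NFAT5KO -NaCl stood apart on the first principal component of the NFAT5KO libraries, at -5.63 against -22.9 and -19.8 for the other -NaCl libraries and 14.3 to 18.6 for the +NaCl libraries, and results that rest on it are given without it as well. In bulk RNA, a lower level in each cell and fewer expressing cells cannot be told apart.

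Per unit of transcript length, Fgfr1 was the most abundant of the 10 genes and Spry2 the least. In control -NaCl cells Fgfr1 reached an RPKM, the recovered reads scaled for transcript length and library total, of 76.3 ± 1.28 (SD, n = 3), Fgfr2 45.9 ± 0.728 and Fgfr3 19.6 ± 0.677. Spred2 at 17.4 ± 0.633 and Spred1 at 15.6 ± 0.926 came next, followed by Spry1 at 13.3 ± 1.78. Spred1 and Spry1 were neighbours whose libraries overlapped, at 14.6 to 16.3 and 12.3 to 15.4. At the lower end Spry4 stood at 6.30 ± 0.404, Fgfrl1 at 5.78 ± 0.231, Dusp6 at 4.68 ± 0.359 and Spry2 at 2.60 ± 0.235, and the libraries of Spry4 and Fgfrl1 overlapped. The fourth receptor, Fgfr4, was near the limit of detection with 39, 30, 18 and 9 reads summed over the 3 libraries of control -NaCl, control +NaCl, NFAT5KO -NaCl and NFAT5KO +NaCl. Kl, the Klotho co-receptor of FGF23, was listed in neither table.

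**Figure D1:**
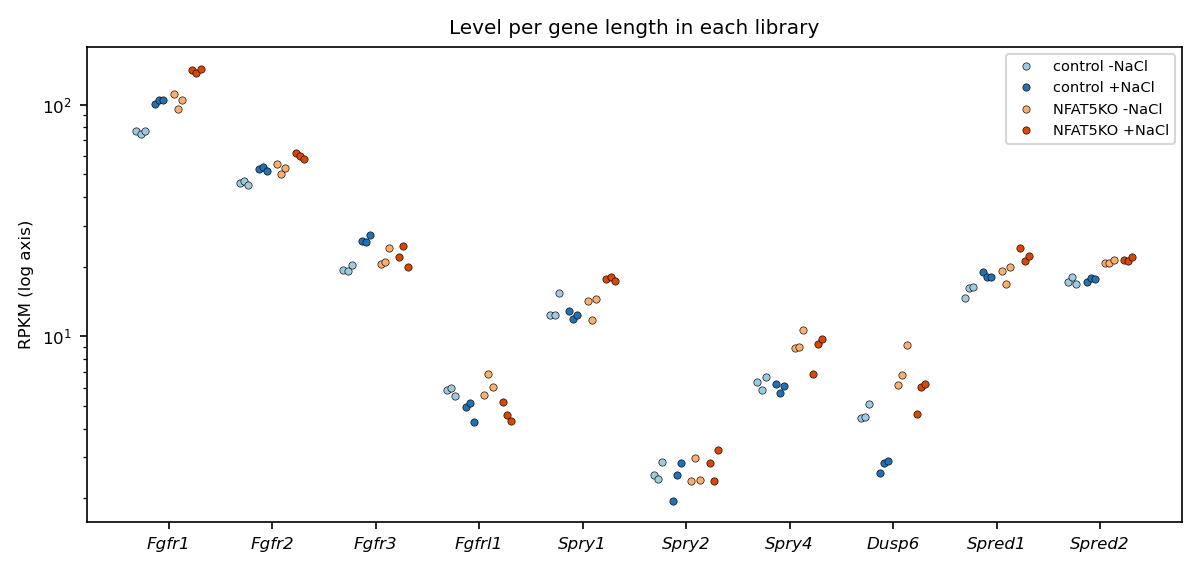
Level of each gene in RPKM (log axis), 1 point per library, with 3 libraries in each of the 4 groups. Fgfr1 lies highest in every group, from 76.3 in control -NaCl to 140 in NFAT5KO +NaCl as group means, and Spry2 lies lowest in -NaCl control cells at 2.60.

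In control cells, the 3 signalling receptors and Spred1 were higher in +NaCl than in -NaCl, and Fgfrl1 and Dusp6 were lower. Thus 6 of the 10 genes passed the test (limma on log2 of the normalized count plus 1, Benjamini-Hochberg adjusted p below 0.05 over all genes tested), beside 26.0% of the 17108 genes tested. The 4 that rose stand beside 13.3% of all genes higher with +NaCl, and the 2 that fell beside 12.7% lower. Their median log2 fold change was -0.02 over the 10 genes and -0.002 over all genes tested. The -NaCl and +NaCl libraries did not overlap for the same 6 genes, a separation seen for 40.7% of all genes tested.

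In NFAT5KO cells, 5 of the 10 genes passed the test, beside 14.7% of the 16657 genes tested. Fgfr1, Fgfr2, Spry1 and Spred1 rose (7.29% of all genes were higher) and Fgfrl1 fell (7.37% were lower). The median log2 fold change was 0.07 over the 10 genes and 0.001 over all genes tested, and the libraries of the media did not overlap for these 5 genes, a separation seen for 34.3% of all genes. Under limma without the mean-variance trend none of the 5 was called, 5 of the 10 had an unadjusted p below 0.05, and edgeR and DESeq2 on recovered reads each called 5. That fit called 14 genes in all in the NFAT5KO libraries. Without the NFAT5KO -NaCl library that stood apart, 4 of the 10 genes were called in NFAT5KO cells, and Spred1 was lost. Leaving out -NaCl replicate 2, -NaCl replicate 3 or +NaCl replicate 3 left 2 of the 10, and +NaCl replicate 1 or 2 left 3, with Fgfr1 and Spry1 called each time.

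The difference between the NaCl responses of the genotypes (NFAT5KO minus control) passed the test for 1 of the 10 genes, Fgfr3, beside 1.80% of the 16849 genes tested. The median difference in log2 fold change was 0.00 over the 10 genes and -0.001 over all genes tested.

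**Figure D2:**
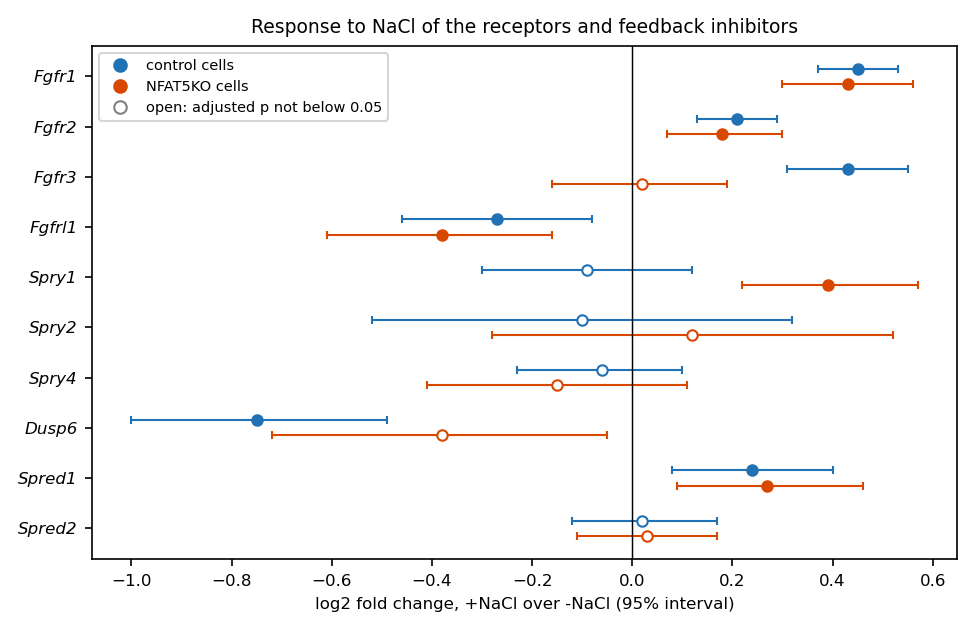
Log2 fold change of +NaCl over -NaCl with its 95% interval for each gene in control and NFAT5KO cells (limma, 3 libraries per group), with open points where the adjusted p was not below 0.05. The intervals of Fgfr3 lie apart, at 0.31 to 0.55 in control and -0.16 to 0.19 in NFAT5KO cells, whereas those of Fgfr1 nearly coincide.

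Fgfr1 (ENSRNOG00000016050) encodes the FGF receptor through which many FGFs act in osteoblasts. The tables place it on chromosome 16, 71266248 to 71319449 on the minus strand, in a build that they do not state. It held 4401, 4298 and 4477 normalized counts in control -NaCl replicates 1, 2 and 3 and 5822, 6072 and 6089 in +NaCl. It held 6835, 5947 and 6478 in NFAT5KO -NaCl and 8679, 8369 and 8885 in NFAT5KO +NaCl. Every +NaCl library was above every -NaCl library in both genotypes. The log2 fold change was 0.45 (SE 0.04, limma adjusted p = 1.1e-05) in control and 0.43 (SE 0.06, adjusted p = 0.0014) in NFAT5KO cells, and the difference of -0.02 had a 95% interval of -0.17 to 0.13. A small nucleolar RNA gene on the other strand, SNORA15, lies inside the Fgfr1 span, and whether strand was used in counting is not stated.

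Fgfr2, on chromosome 1 at 200590953 to 200696928 of the minus strand, encodes a receptor that promotes osteoblast maturation. Its normalized counts were 3677, 3773 and 3708 in control -NaCl and 4263, 4395 and 4248 in control +NaCl. In NFAT5KO cells they were 4806, 4366 and 4612 in -NaCl and 5367, 5156 and 5092 in +NaCl. The groups did not overlap in either genotype, and the rises were small, 0.21 on the log2 scale (SE 0.04, limma adjusted p = 0.00172) in control and 0.18 (SE 0.05, adjusted p = 0.0406) in NFAT5KO cells. The call in NFAT5KO cells was lost without -NaCl replicate 2 (adjusted p = 0.165), -NaCl replicate 3 (0.116), +NaCl replicate 1 (0.137), +NaCl replicate 2 (0.051) or +NaCl replicate 3 (0.0826).

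Fgfr3, on chromosome 14 at 82273070 to 82287706 of the minus strand, encodes the receptor best known for restraining growth plate cartilage. Control cells held 1166, 1163 and 1256 normalized counts in -NaCl and 1581, 1565 and 1684 in +NaCl, with no overlap. NFAT5KO cells held 1343, 1374 and 1564 in -NaCl and 1431, 1582 and 1319 in +NaCl, and these groups overlapped. Fgfr3 rose by 0.43 on the log2 scale in control cells (SE 0.05, limma adjusted p = 0.00016), and the value in NFAT5KO cells was 0.02 (SE 0.08, adjusted p = 0.919, 95% interval -0.16 to 0.19). The difference between the responses was -0.41 (SE 0.10, adjusted p = 0.0471). This call lay close to the threshold: it was lost under TMM scaling (0.0538), equal library totals (0.0646), edgeR (0.0597) and limma without the trend (0.187). It was also lost in limma with replicate number as a block (0.0786), and DESeq2 kept it. It was also lost in 9 of the 12 fits that each left out 1 library and kept without control -NaCl replicate 3, NFAT5KO -NaCl replicate 1 or NFAT5KO +NaCl replicate 2, with differences from -0.48 to -0.35 and adjusted p from 0.0182 to 0.128 over the 12.

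Fgfrl1, on chromosome 14 at 2018500 to 2032593 of the minus strand, encodes an FGF-binding membrane protein that lacks the tyrosine kinase domain. It moved opposite to the signalling receptors, from 432, 443 and 416 normalized counts to 368, 386 and 320 in control cells. In NFAT5KO cells it moved from 445, 550 and 479 to 417, 361 and 349. All +NaCl libraries were below all -NaCl libraries of their genotype. It fell by 0.27 on the log2 scale (SE 0.09, limma adjusted p = 0.0396) in control and fell by 0.38 (SE 0.10, adjusted p = 0.0264) in NFAT5KO cells, with a difference of -0.12 (adjusted p = 0.794). The control call was lost under DESeq2 (0.0622), without the trend (0.0989) and without -NaCl replicate 1 (0.0964), -NaCl replicate 2 (0.122), +NaCl replicate 1 (0.0602) or +NaCl replicate 3 (0.142). The NFAT5KO call was lost without -NaCl replicate 2 (0.122), -NaCl replicate 3 (0.0716), +NaCl replicate 2 (0.0701) or +NaCl replicate 3 (0.0951).

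**Figure D3:**
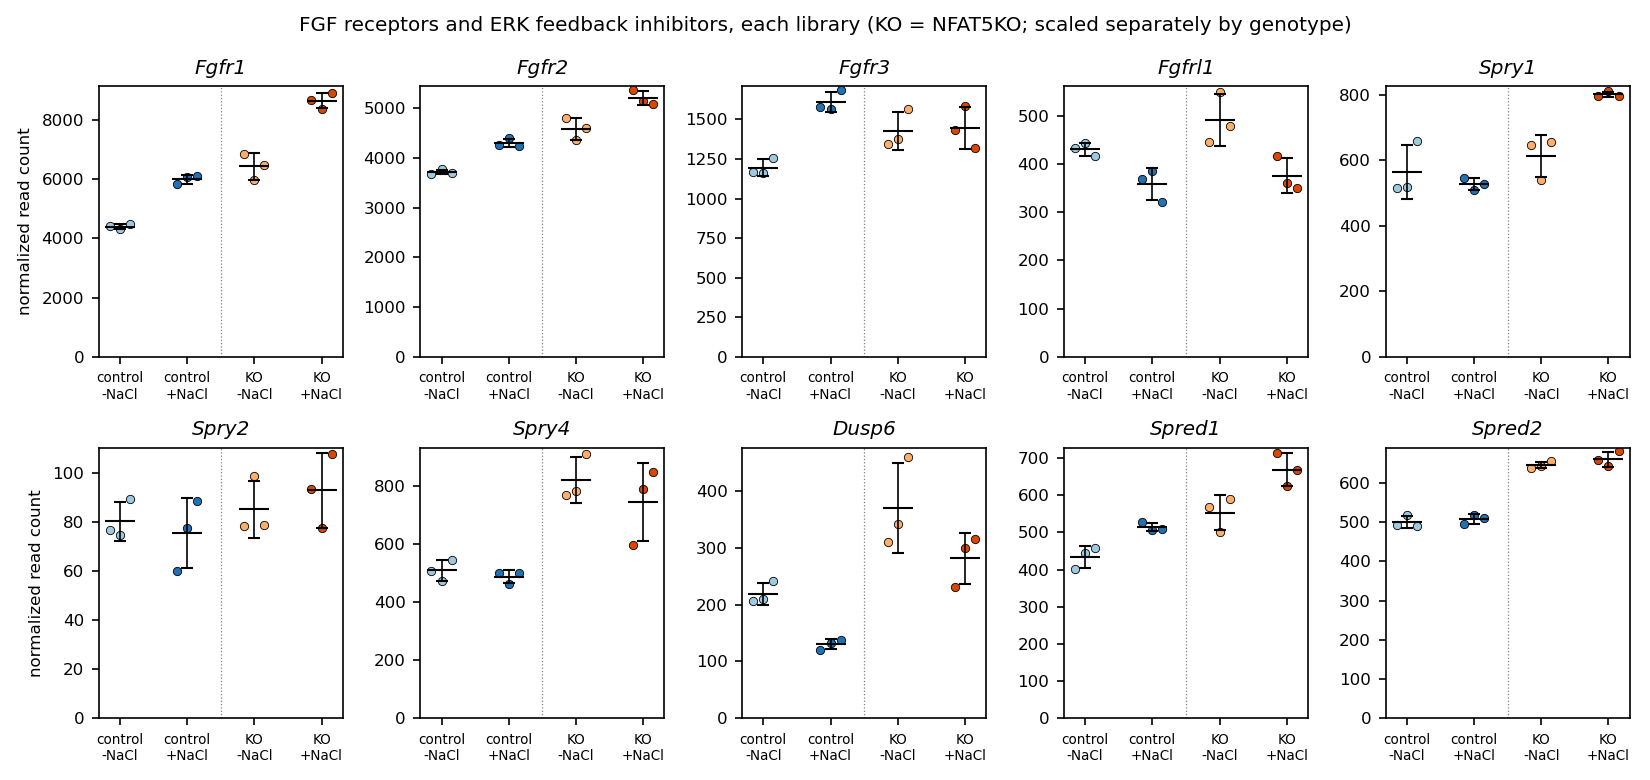
Normalized read count of each of the 10 genes in every library, with the group mean and SD (n = 3), on axes that start at 0. The control and NFAT5KO tables were scaled separately; Fgfr1 rises with +NaCl in both, Fgfr3 in control cells from 1163 to 1256 up to 1565 to 1684, and Dusp6 is lowest in control +NaCl at 120 to 137.

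Among the feedback inhibitors, Dusp6, on chromosome 7 at 41475163 to 41479392 of the plus strand, changed most in control cells. It held 206, 210 and 241 normalized counts in control -NaCl and 120, 133 and 137 in control +NaCl. Every +NaCl library was below every -NaCl library, and Dusp6 fell by 0.75 on the log2 scale (SE 0.12, limma adjusted p = 0.0009), or to 0.597 of the -NaCl level. In NFAT5KO cells it held 310, 342 and 459 in -NaCl and 231, 299 and 315 in +NaCl. These groups overlapped, with replicate 3 of -NaCl highest and replicate 1 of +NaCl lowest. The value there was -0.38 (SE 0.15, adjusted p = 0.117, 95% interval -0.72 to -0.05), and the difference between the responses of 0.36 (SE 0.21, adjusted p = 0.493, interval -0.08 to 0.80) did not pass the test. The NFAT5KO value was -0.22 (adjusted p = 0.39) without -NaCl replicate 3, -0.25 (adjusted p = 0.33) without +NaCl replicate 1, and -0.50 (adjusted p = 0.0566) without -NaCl replicate 1, the library that stood apart. The control call held without any 1 library, at adjusted p from 0.00317 to 0.00414.

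Spry1, on chromosome 2 at 124400679 to 124405331 of the plus strand, encodes a Sprouty protein that restrains receptor tyrosine kinase signalling. Its normalized counts in control cells were 515, 519 and 658 in -NaCl and 545, 508 and 528 in +NaCl, and the groups overlapped. In NFAT5KO cells they were 645, 540 and 654 in -NaCl and 797, 810 and 797 in +NaCl, without overlap. Spry1 rose by 0.39 on the log2 scale in NFAT5KO cells (SE 0.08, limma adjusted p = 0.00906), a call kept without any 1 library, and the control value was -0.09 (adjusted p = 0.548, 95% interval -0.30 to 0.12). The difference between the responses was 0.48 (SE 0.13) with an adjusted p of 0.0849 in limma and of 0.0238 in DESeq2.

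Spred1, on chromosome 3 at 108795235 to 108857556 of the plus strand, encodes a protein that recruits neurofibromin to RAS. It held 401, 445 and 458 normalized counts in control -NaCl and 528, 507 and 508 in control +NaCl. It held 569, 502 and 590 in NFAT5KO -NaCl and 713, 624 and 669 in NFAT5KO +NaCl. The groups did not overlap in either genotype. The log2 fold changes were 0.24 (SE 0.07, limma adjusted p = 0.0305) and 0.27 (SE 0.08, adjusted p = 0.047). The control call was lost under DESeq2 (0.0592), without the trend (0.0726) and in each fit that left out 1 library except control -NaCl replicate 3, with adjusted p up to 0.113. The NFAT5KO call was lost without any 1 library other than +NaCl replicate 2, with adjusted p up to 0.186, and was 0.0578 without -NaCl replicate 1.

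The other 3 inhibitors did not pass the test in either genotype. Spry2 was low, with 60.0 to 89.3 normalized counts in the control and 77.4 to 108 in the NFAT5KO libraries, and its log2 values of -0.10 and 0.12 had intervals of -0.52 to 0.32 and -0.28 to 0.52. Spry4, a Sprouty gene often read as an ERK target, held 461 to 545 normalized counts in the control libraries and 596 to 910 in the NFAT5KO libraries, with log2 values of -0.06 (95% interval -0.23 to 0.10) and -0.15 (-0.41 to 0.11), the latter being 0.00 without +NaCl replicate 1. Spred2, a second SPRED gene, held 490 to 519 and 639 to 681 normalized counts, and its log2 values of 0.02 and 0.03 had intervals of -0.12 to 0.17 and -0.11 to 0.17.

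Between the genotypes the levels were set side by side with no test, because the tables were normalized separately and the NFAT5KO cells are 1 clone. In RPM, Dusp6 stood at 12.9 ± 0.987 (SD, n = 3) in control and 20.3 ± 4.40 in NFAT5KO cells in -NaCl, and at 7.62 ± 0.5 and 15.5 ± 2.45 in +NaCl, ratios of 1.58 and 2.03. Spry4 had ratios of 1.51 and 1.44, and Fgfr1 of 1.36 and 1.35, with no overlap between the genotypes in either medium. The same held for Dusp6, for Fgfr2 (1.15 and 1.14), for Spred1 (1.19 and 1.22) and for Spred2 (1.21 and 1.22). The share of all genes without overlap between the genotypes was not computed. Whether such separation is more common among the genes named here than among all genes was therefore not tested. Spry1 was at a ratio of 1.02 in -NaCl, where the genotypes overlapped, and of 1.43 in +NaCl, where they did not. Fgfr3 did not overlap in either medium, and was higher in NFAT5KO cells in -NaCl, at a ratio of 1.12, and lower in +NaCl, at 0.843. Fgfrl1 and Spry2 overlapped between the genotypes in both media. The median log2 ratio over all genes of both tables was -0.030 in -NaCl and -0.024 in +NaCl.

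To show the sequence before the starts of the members that changed in control cells, the 250 bases upstream of the RefSeq transcription start are printed for the 5 of them that the RefSeq table (build GRCr8) holds. Of the 10 genes, 9 were matched there. The strand is that of the gene, the coordinates are those of GRCr8 and not of the deposited tables, and capitals mark GGAA or its reverse complement TTCC, the core shared by sites of ETS factors and by the tonicity element that NFAT5 binds.
Fgfr2, chr1:194280915-194281164, minus strand: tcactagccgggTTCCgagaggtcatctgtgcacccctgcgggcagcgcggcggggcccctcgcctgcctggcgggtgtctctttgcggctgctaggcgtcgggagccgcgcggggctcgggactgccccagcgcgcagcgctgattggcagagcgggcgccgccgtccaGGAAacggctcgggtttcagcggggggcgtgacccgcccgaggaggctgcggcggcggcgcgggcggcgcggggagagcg
Fgfr3, chr14:81227210-81227459, minus strand: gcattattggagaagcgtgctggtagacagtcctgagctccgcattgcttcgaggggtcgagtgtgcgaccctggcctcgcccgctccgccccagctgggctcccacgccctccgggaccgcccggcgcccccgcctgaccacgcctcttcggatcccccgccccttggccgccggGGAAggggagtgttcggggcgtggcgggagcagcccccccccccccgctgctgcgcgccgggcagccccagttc
Fgfrl1, chr14:1166335-1166584, minus strand: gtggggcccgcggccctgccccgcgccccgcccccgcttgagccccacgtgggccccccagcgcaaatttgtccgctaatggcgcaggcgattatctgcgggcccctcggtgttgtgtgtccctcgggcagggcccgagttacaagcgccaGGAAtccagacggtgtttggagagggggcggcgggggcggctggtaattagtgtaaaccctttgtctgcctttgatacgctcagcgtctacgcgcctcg
Dusp6, chr7:35979354-35979603, plus strand: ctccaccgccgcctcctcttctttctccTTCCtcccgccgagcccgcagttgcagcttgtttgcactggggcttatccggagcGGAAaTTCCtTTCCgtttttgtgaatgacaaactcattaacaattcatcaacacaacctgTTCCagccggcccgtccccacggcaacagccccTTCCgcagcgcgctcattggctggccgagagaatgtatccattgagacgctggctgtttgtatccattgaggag
Spred1, chr3:124436980-124437229, plus strand: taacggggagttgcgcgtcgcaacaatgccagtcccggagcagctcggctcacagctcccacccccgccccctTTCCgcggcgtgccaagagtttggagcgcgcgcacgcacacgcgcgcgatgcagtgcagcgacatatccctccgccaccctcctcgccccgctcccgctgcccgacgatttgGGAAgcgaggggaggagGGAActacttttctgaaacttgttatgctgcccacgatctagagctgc
GGAA on either strand occurred 6 times in the Dusp6 sequence, and 9.27% of the 33469 promoters in the table held at least as many. It occurred 3 times for Spred1 (55.5% held as many), 2 times for Fgfr2 (77.4%) and 1 time each for Fgfr3 and Fgfrl1 (93.2%). Among the members not printed, Spred2, which was not called in either genotype, held more than Dusp6, at 7 (3.97%). Spry4 held 3 (55.5%), Spry2 held 2 (77.4%) and, at a second start, 4 (34.7%), and Spry1 held 0. The longer forms CCGGAA and TGGAAA, which contain GGAA, were searched on both strands as well, and 12.6% and 19.7% of all promoters held them. Neither was in the 5 printed windows, and among the other members CCGGAA began at -171 for Spry2 and at -81 for Spry4, and TGGAAA at -245 of a second Spry2 start. These matches are descriptions of the letters.

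Of the 12 FGF ligands tested, 1 was higher and 2 were lower with +NaCl in control cells, and 1 was lower in NFAT5KO cells, shares near or below the 26.0% and 14.7% of all genes called. Fgf8, a ligand of the FGFR2 and FGFR3 c-type splice forms, held 96.8, 130 and 128 normalized counts in control -NaCl and 47.6, 31.7 and 47.9 in +NaCl. In NFAT5KO cells it held 170, 216 and 195 in -NaCl and 76.5, 106 and 94.1 in +NaCl. No groups overlapped within a genotype, and Fgf8 fell by 1.47 on the log2 scale (SE 0.22, limma adjusted p = 0.00059) in control and fell by 1.07 (SE 0.16, adjusted p = 0.00216) in NFAT5KO cells. Fgf6 (-2.20, adjusted p = 0.0056) and Fgf7 (1.45, adjusted p = 0.0426) changed in control cells at counts of at most 17.9 per library, and the Fgf7 call was lost under DESeq2 (0.0831) and without any 1 library other than control -NaCl replicate 2, with adjusted p up to 0.131. Fgf23 itself was rare: 26 reads in control -NaCl against 3 in +NaCl, and 28 against 9 in NFAT5KO cells, summed over 3 libraries, with limma adjusted p of 0.066 and 0.121. In control cells Fgf23 was called without -NaCl replicate 1 (0.0253) or +NaCl replicate 2 (0.0323). For the ligands the median log2 fold change was -0.56 in control and -0.77 in NFAT5KO cells. None of the 12 ligands differed in its response between the genotypes in limma, edgeR or DESeq2, and 1 had an unadjusted p below 0.05 in limma, Fgf1, a ligand of all FGF receptors (difference -0.28, adjusted p = 0.296).

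Of the 13 co-receptor genes tested, Fgfr4 among them, 6 were higher and 2 lower in control cells, and 3 were higher in NFAT5KO cells (26.0% and 14.7% of all genes were called), with medians of 0.12 and 0.06. The syndecans and glypicans carry the heparan sulfate chains on which FGFs meet their receptors. In control cells these carriers did not move one way, since the 2 genes of the list that fell were a syndecan and a glypican. Gpc1 rose by 0.65 on the log2 scale (SE 0.03, limma adjusted p = 4.6e-07) in control and by 0.33 (SE 0.07, adjusted p = 0.013) in NFAT5KO cells, and Sdc2 rose by 0.54 and 0.29 (adjusted p = 2.6e-06 and 0.00682). Their differences between the genotypes were called in DESeq2 (Gpc1 -0.31, adjusted p = 0.0146, Sdc2 -0.25, adjusted p = 0.0153) and not in limma. Sdc3 held 6650, 6299 and 6285 normalized counts in control -NaCl and 9972, 9551 and 9929 in +NaCl, against 6739, 6052 and 6186 and then 7078, 6640 and 7280 in NFAT5KO cells. Its control groups were far apart and its NFAT5KO groups overlapped, and the responses differed by -0.47 (SE 0.07, adjusted p = 0.00188). Sdc4 held 1247, 1222 and 1299 and then 1583, 1813 and 1741 in control cells, and 1680, 1664 and 1732 and then 1736, 1613 and 1560 in NFAT5KO cells. It rose by 0.44 in control cells (adjusted p = 0.00023), its NFAT5KO groups overlapped, and the responses differed by -0.49 (SE 0.08, adjusted p = 0.00363). The Gpc1 call in NFAT5KO cells was lost without -NaCl replicate 2 (0.0661), -NaCl replicate 3 (0.065) or +NaCl replicate 3 (0.0534).

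In the cascade from adaptors to ERK, 5 of 23 genes rose and none fell in control cells, and 3 rose and none fell in NFAT5KO cells, shares close to the 26.0% and 14.7% of all genes called. Frs2, the adaptor that FGF receptors phosphorylate, rose by 0.27 (SE 0.05, limma adjusted p = 0.00163) and 0.23 (SE 0.05, adjusted p = 0.0127) on the log2 scale. Gab1, a docking protein, rose by 0.49 in control cells (SE 0.08, adjusted p = 0.00118), with 0.11 (adjusted p = 0.358) in NFAT5KO cells and a difference that did not pass (adjusted p = 0.0991). Sos1, the exchange factor that loads RAS, rose by 0.31 in control (adjusted p = 0.00179) and 0.21 in NFAT5KO cells (adjusted p = 0.0321). In NFAT5KO cells both the Frs2 and the Sos1 call were lost without -NaCl replicate 2 (0.0556 and 0.109), -NaCl replicate 3 (0.065 and 0.11) or +NaCl replicate 3 (0.0557 and 0.126), and the Sos1 call without +NaCl replicate 1 (0.0912). The list's median was 0.01 in control and 0.09 in NFAT5KO cells. None of the 23 differed between the genotypes in limma, edgeR or DESeq2, where 5, 5 and 3 had an unadjusted p below 0.05.

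Of 17 further inhibitors, 5 rose and 5 fell in control cells, and 4 rose and 3 fell in NFAT5KO cells (26.0% and 14.7% of all genes were called), with medians of 0.03 and 0.13. Sulf2, a sulfatase that trims heparan sulfate, fell by 1.31 (SE 0.13, limma adjusted p = 3.5e-05) and fell by 1.48 (SE 0.18, adjusted p = 0.00106) on the log2 scale. Phosphatase genes related to Dusp6 fell in control cells as well, of which Dusp4 fell by 0.50 (adjusted p = 0.00015), Dusp7 fell by 0.32 (adjusted p = 0.00063) and Dusp9 fell by 1.23 (adjusted p = 0.00035). In NFAT5KO cells Dusp9 fell by 1.01 (adjusted p = 0.0031), and Dusp4 and Dusp7 had values of 0.05 (0.732) and -0.08 (0.417). Dusp5, the remaining ERK phosphatase on the list, was not called. Dusp4, which acts on ERK in the nucleus, held 832, 782 and 867 normalized counts and then 576, 582 and 593 in control cells, and 1249, 1050 and 1237 and then 1110, 1310 and 1243 in NFAT5KO cells, where the groups overlapped. Its responses differed by 0.55 (SE 0.11, adjusted p = 0.0125). The differences of Dusp7 (0.24, limma adjusted p = 0.13) and Dusp9 (0.22, adjusted p = 0.756) did not pass the test. Nf1, the RAS GTPase-activating protein neurofibromin, rose by 0.14 in control (adjusted p = 0.025) and 0.39 in NFAT5KO cells (adjusted p = 0.00198), and its control call was lost without -NaCl replicate 2 (0.0804) or +NaCl replicate 1 (0.0549), 2 (0.0603) or 3 (0.093). Cblb, a ubiquitin ligase, rose by 0.36 (adjusted p = 0.00353) and 0.66 (adjusted p = 0.00227). The differences between the genotypes did not pass in limma for Nf1 (adjusted p = 0.104) or Cblb (0.361), and DESeq2 called that of Nf1 (0.0153).

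Of 14 genes that ERK is known to drive, 5 rose and 5 fell in control cells and 2 rose and 3 fell in NFAT5KO cells (26.0% and 14.7% of all genes were called), so the list did not move one way, with medians of -0.04 and 0.15. The ETS factors Etv4 and Etv5, which like Dusp6 are classical FGF-ERK targets, fell in control cells by the test: Etv5 fell by 0.58 (SE 0.10, limma adjusted p = 0.00142) and Etv4 fell by 0.87 (SE 0.12, adjusted p = 0.00041). Etv1, the third ETS factor of the list, went the other way and rose by 0.47 in control cells (SE 0.09, adjusted p = 0.00394), with 0.21 in NFAT5KO cells (adjusted p = 0.0978, and 0.0476 without +NaCl replicate 1). In NFAT5KO cells Etv5 fell by 0.62 (SE 0.10, adjusted p = 0.00244), from 368, 433 and 441 normalized counts to 264, 272 and 270, and Etv4 had a value of -0.45 (adjusted p = 0.109), called in DESeq2 (0.0309) and in limma without -NaCl replicate 1 (-0.69, adjusted p = 0.00381). Phlda1, an early response gene, rose by 1.27 (adjusted p = 3.9e-06) and 1.00 (adjusted p = 0.00071). Ccnd1, cyclin D1, held 2123, 2302 and 2419 and then 1419, 1494 and 1460 normalized counts in control cells, and 2662, 2684 and 2928 and then 2149, 2346 and 2525 in NFAT5KO cells. It fell in both without overlap, and its responses differed by 0.41 (SE 0.09, adjusted p = 0.031). The call of the fall in NFAT5KO cells (adjusted p = 0.0335) was lost without -NaCl replicate 2 (0.0795), -NaCl replicate 3 (0.139), +NaCl replicate 1 (0.123) or +NaCl replicate 2 (0.0613). Ier3, a survival gene, rose by 1.25 in control cells (adjusted p = 3e-05) and had a value of 0.40 in NFAT5KO cells (adjusted p = 0.111), a difference of -0.85 (SE 0.21, adjusted p = 0.0469).

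**Figure D4:**
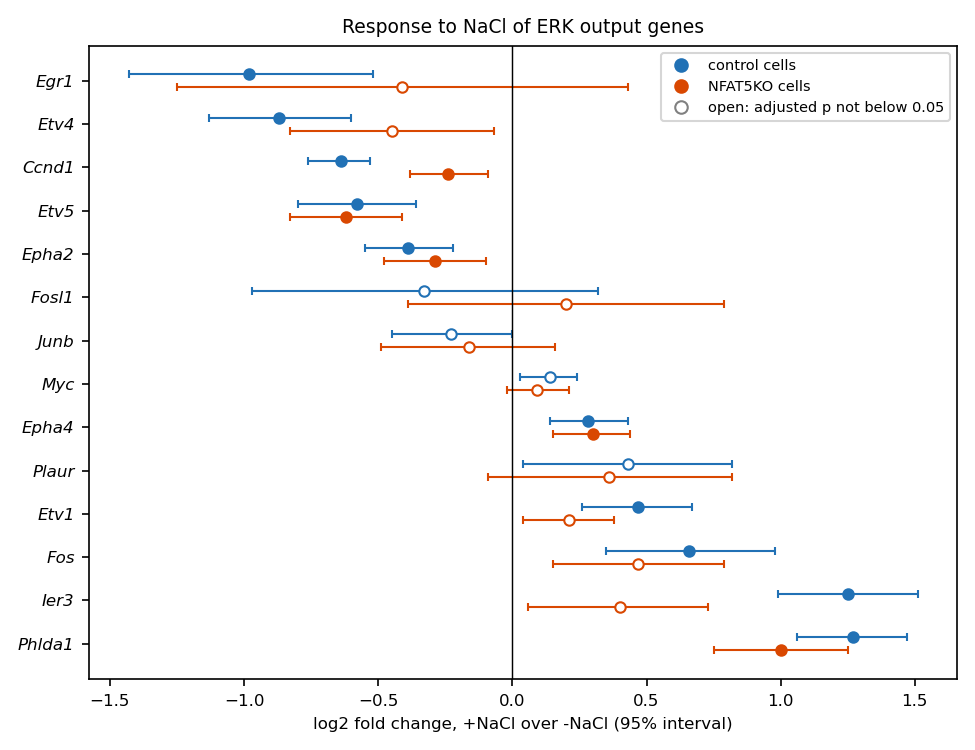
Log2 fold change of +NaCl over -NaCl with its 95% interval for 14 genes that ERK is known to drive, ordered by the control value, with open points where the adjusted p was not below 0.05. In control cells the 5 filled points below 0 are Egr1, Etv4, Ccnd1, Etv5 and Epha2 and the 5 above it are Epha4, Etv1, Fos, Ier3 and Phlda1, and Etv5 has nearly the same value in both genotypes, -0.58 and -0.62.

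The genes whose pattern over the 12 libraries was most like that of Dusp6 were Adcy7, an adenylyl cyclase gene, Pdgfrb, a receptor for PDGF, and AABR07049695.2. Their root mean square differences from Dusp6 on the centred log2 scale of RPM plus 1 were 0.13, 0.14 and 0.15, where Dusp6 itself varied by 0.50, among 11431 genes compared. For Fgfr1, which varied by 0.31, the closest were Ptpn13 (0.051), Ago1 (0.056) and Irx3 (0.060). These likenesses describe 12 libraries that share genotype and medium.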

How the data were processed

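RNA of 12 UMR-106 libraries was analysed, 3 per group. Poly-A RNA was sequenced as paired ends; the aligner, the counting tool and the use of strand are not given in the sources used here. The labels name a mouse build, whereas the identifiers are those of rat. The values deposited by the authors are signal in the form of normalized read counts, scaled by 1 factor per library and separately in the 2 tables. Where table names and column labels disagreed on genotype, the labels were followed. A further 24 columns without a sample were not used, nor were the authors' columns of fold changes and p-values. Whole reads were recovered for 100% of values within 0.1 read.

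Log2 of the normalized count plus 1 was tested in limma 3.58.1 (R 4.3.3) with a trend of the variance over the mean, within each table and for genes averaging at least 1, and the difference of responses in 1 model of 4 groups for genes of both tables. Alternatives were pseudocounts of 0.5 and 5, a minimum mean of 10 or no filter, TMM scaling, equal totals, edgeR 4.0.16 and DESeq2 1.42.0 on recovered reads (which called 4392 and 4049 genes in control, 2340 and 2544 in NFAT5KO cells and 302 and 468 for the difference), no trend, a replicate block and leaving out each library. The code was tested on simulated data. The 10 genes, the pathway lists and the markers were chosen with earlier results of these data known. Named were the 10 genes, the up to 3 genes with the smallest p of each list and fit, Fgf23, Fgfr4, Nfat5 and the 3 patterns most like those of Dusp6 and Fgfr1; Dusp5, Egr1, Epha2, Etv4, Fos and Kl were named for context after the values were seen. A gene that this rule would name is not reported here. Grb2 has 2 identifiers and the one with more reads was used.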

Additional observations from a re-analysis of the deposited data

Results flagged for a closer look

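The NaCl response differed between the genotypes, by the test of the difference itself, for 1 of the 10 genes and for 5 genes of the pathway lists. For Fgfr3 the difference in log2 fold change (NFAT5KO minus control) was -0.41. It was -0.47 for Sdc3, -0.49 for Sdc4 and -0.85 for Ier3, and it was 0.55 for Dusp4 and 0.41 for Ccnd1. The adjusted p of Ier3 was above 0.05 with a pseudocount of 5 (0.0534) and in edgeR (0.0511). Leaving out 1 library ended the Ier3 call in 11 of 12 fits, with NFAT5KO -NaCl replicate 2 the exception, at adjusted p up to 0.131. It ended the Ccnd1 call in 9 of 12, the exceptions being control -NaCl replicate 1, NFAT5KO -NaCl replicate 3 and NFAT5KO +NaCl replicate 1, at adjusted p up to 0.0808. The calls of Sdc3, Sdc4 and Dusp4 were kept without any 1 library. In limma without the mean-variance trend Sdc3 was still called, and Sdc4 (adjusted p = 0.0522), Dusp4 (0.0907), Ier3 (0.149), Ccnd1 (0.151) and Fgfr3 (0.187) were not.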

How the results depend on the processing

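The number of the 10 genes called in control cells stayed between 4 and 6 under every alternative run. In NFAT5KO cells it was 0 without the mean-variance trend, where 0 genes of the pathway lists were called against 19 and 30 had an unadjusted p below 0.05, and between 2 and 4 when 1 library was left out, with 9 to 24 genes of the lists. For the difference, 1 of the 10 genes was called in the main analysis and 0 under TMM scaling, equal library totals, edgeR, limma without the trend and the replicate block, 2 under DESeq2, and 0 to 1 when 1 library was left out. At an unadjusted p below 0.05 there were 2 of the 10 genes under TMM scaling, equal library totals, edgeR and no trend, and 3 under the block. The pathway lists had 5 genes called for the difference, 9 under DESeq2, 1 without the trend, and 3 to 4 when 1 library was left out. Over all genes, limma without the trend called 2763 in control, 14 in NFAT5KO cells and 103 for the difference, against 4450, 2441 and 304, DESeq2 called 468 for the difference, and leaving out 1 library left 3321 to 4239, 943 to 2709 and 159 to 257. The causes were not tested. No result changed direction among those called.

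Replicate numbers showed no clear pairing of the libraries. The correlations of same-numbered deviations ran from -0.0982 to 0.145 in control and from -0.0846 to 0.0531 in NFAT5KO cells. Those of differently numbered libraries ran from -0.137 to 0.144 and from -0.115 to 0.108. With 3 libraries per group this check cannot exclude pairing. With the replicate block, 6 of the 10 genes were called in control and 5 in NFAT5KO cells, where Fgfr2 (adjusted p = 0.0543) was lost and Dusp6 (0.0411) was gained, and the Fgfr3 call for the difference was lost (0.0786). Of the pathway genes named, the block gained Fgf23 in control (0.0414) and Etv4 in NFAT5KO cells (0.043) and lost Sos1 in NFAT5KO cells (0.0528). Depth limits what can be said of low genes such as Fgfr4 and Fgf23.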
